A study of Mus musculus with 16 samples.

Results

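The genes described here encode the proteasome and its regulators in cultured mouse cortical neurons. They are the symbols of the deposited count table that begin with Psma to Psmg and a number and that had a count of at least 10 in 4 or more of the 16 libraries. Of 51 such symbols 49 met the count rule, out of 16934 genes in the table. Primary cortical neurons of C57BL/6 embryos, taken at embryonic day 15 to 16, were grown for 14 days, and messenger RNA was read from its 3′ ends. The 4 groups of 4 libraries were neurons that had carried Atto488-labelled α-synuclein fibrils (0.1 µM over 16 h) and were then kept with microglia for 6 h, loaded neurons kept alone, untreated neurons kept with microglia, and untreated neurons kept alone. α-Synuclein forms the aggregates of Parkinson's disease, microglia are the resident immune cells of the brain, and the question of the series is what microglia do for neurons burdened with fibrils. All groups share the strain, the embryonic source and the culture, the labels name no sham loading of the untreated neurons, and no step that separates neurons and microglia is described in them.

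The proteasome is the barrel-shaped protease that degrades proteins tagged with ubiquitin. Its core is built of stacked rings of alpha subunits (Psma), which gate the entry, and beta subunits (Psmb), some of which hold the active sites. A regulatory cap of ATPases (Psmc) and of lid and receptor subunits (Psmd) binds ubiquitinated proteins, unfolds them and threads them into the core. Activators (Psme) can take the place of the cap, chaperones (Psmg) assemble the core, and interferon exchanges the active beta subunits for those of the immunoproteasome. In neurons the proteasome acts at synapses as well as in the cell body, and aggregated α-synuclein is known as one of the proteins that can burden it. When proteasome activity falls, the transcription factor Nfe2l1 can raise the genes of core and cap together through antioxidant response elements in their promoters.

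The members were 17 core genes (7 alpha subunits, 7 constitutive beta subunits and the 3 immunoproteasome subunits), 20 cap genes (6 ATPases and 14 other subunits or cap chaperones), 5 activators, and 5 core chaperones or inhibitors (Psmg1 to Psmg4 and Psmf1). A further 2 genes, Psmc3ip and Psme3ip1, met the rule by name only. Psmc3ip is a meiotic recombination factor named after a cap subunit it binds, and Psme3ip1 is a binding partner of an activator, so they are kept apart below. The symbols outside the count rule were Psma8, the testis-specific alpha subunit, with a count of 0 in all 16 libraries, and Psmb11, the beta subunit of the thymus, with 10 or more counts in 2 libraries. Just inside it were Psmb9 with 4 libraries, Psmb8 with 5 and Psmc3ip with 6. All 49 passed the filter on low counts and were tested among 13139 genes.

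Total counts were 6511516 to 13986374 per library, of which the ribosomal RNA precursor Rn45s took 9.35% to 26.8%. Levels are given as CPM, that is, counts scaled to a common library size, after scaling by the trimmed mean of M-values (TMM), and because reads come from 3′ ends, levels of different genes can be set side by side without division by length. Each change is a log2 fold change ± its standard error from edgeR's quasi-likelihood test on 4 libraries a group, with p-values adjusted by Benjamini-Hochberg over all genes tested and a gene called below 0.05. Whether the 4 libraries of a group are separate cultures is not stated in the labels, and the p-values speak only of the spread among them, technical spread included. Neuronal markers (10 genes) summed to 1009 to 1698 CPM in loaded neurons with microglia, 1223 to 7099 in loaded neurons alone, 931 to 2686 in untreated neurons with microglia and 2926 to 6986 in untreated neurons alone. Oligodendrocyte-lineage markers (11 genes) summed to 3921 to 9353 CPM in the 8 co-culture libraries, against 1072 to 2993 CPM in the 8 libraries of neurons alone. Astrocyte markers (8 genes) summed to 897 to 7380 CPM over the 16 libraries. Microglial markers (12 genes, of which the homeostatic markers P2ry12 and Tmem119 were at 0 in every library) reached 1343 and 658 CPM in replicate 1 of the loaded and of the untreated co-cultures, and 4.92 to 74.7 CPM in the other 14. In such mixed cultures fewer cells of a type and less RNA per cell cannot be told apart, and the part of these cell type differences in the results below was not tested.

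Proteasome transcripts were present throughout the barrel and the cap, at 0.388% to 0.582% of the scaled counts of a library in sum. Of the 49 genes 40 had a count in every library. Levels of the subunits differed by up to 7.06 times within the alpha ring and 7.50 times within the constitutive beta ring as means over 16 libraries, although each ring holds its subunits in equal number. The lowest of the alpha ring, Psma5, had a count of 0 in 1 library. The lowest of the beta ring, Psmb7, has a named pseudogene copy and overlaps Nek6 on the other strand, so its level is uncertain.

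In the alpha ring, Psma2 was the most abundant with a mean level of 228 CPM, followed by Psma7 (179 CPM), Psma3 (129.6 CPM), Psma4 (121 CPM), Psma1 (86.7 CPM) and Psma6 (69.5 CPM). Psma5 was the lowest at 32.3 CPM. In the beta ring the order was Psmb4 (246 CPM), Psmb5 (220.5 CPM), Psmb3 (172 CPM), Psmb6 (148 CPM), Psmb1 (132 CPM), Psmb2 (64.9 CPM) and Psmb7 (32.8 CPM). Psmb5 carries the chymotrypsin-like active site, Psmb6 the caspase-like site and Psmb7 the trypsin-like site, and the other 4 have no active site of their own. Neighbours in both orders overlapped in their libraries, and no order is read between them.

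Among the 6 ATPases that form the motor of the cap, Psmc3 led with a mean of 234 CPM and Psmc5 was lowest with 65.9 CPM. Of the other cap genes Psmd2, a large scaffold that docks ubiquitin shuttles, was the most abundant at 292 CPM, and it was followed by Psmd1, the other large scaffold, at 271 CPM. Psmd14, the deubiquitinase of the lid, averaged 75.2 CPM and the ubiquitin receptor Psmd4 159.9 CPM. The lowest were Psmd5, Psmd9 and Psmd10, chaperones that help assemble the ATPase ring and are not in the finished particle, with means of 23.1, 16.5 and 12.5 CPM.

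**Figure D1:**
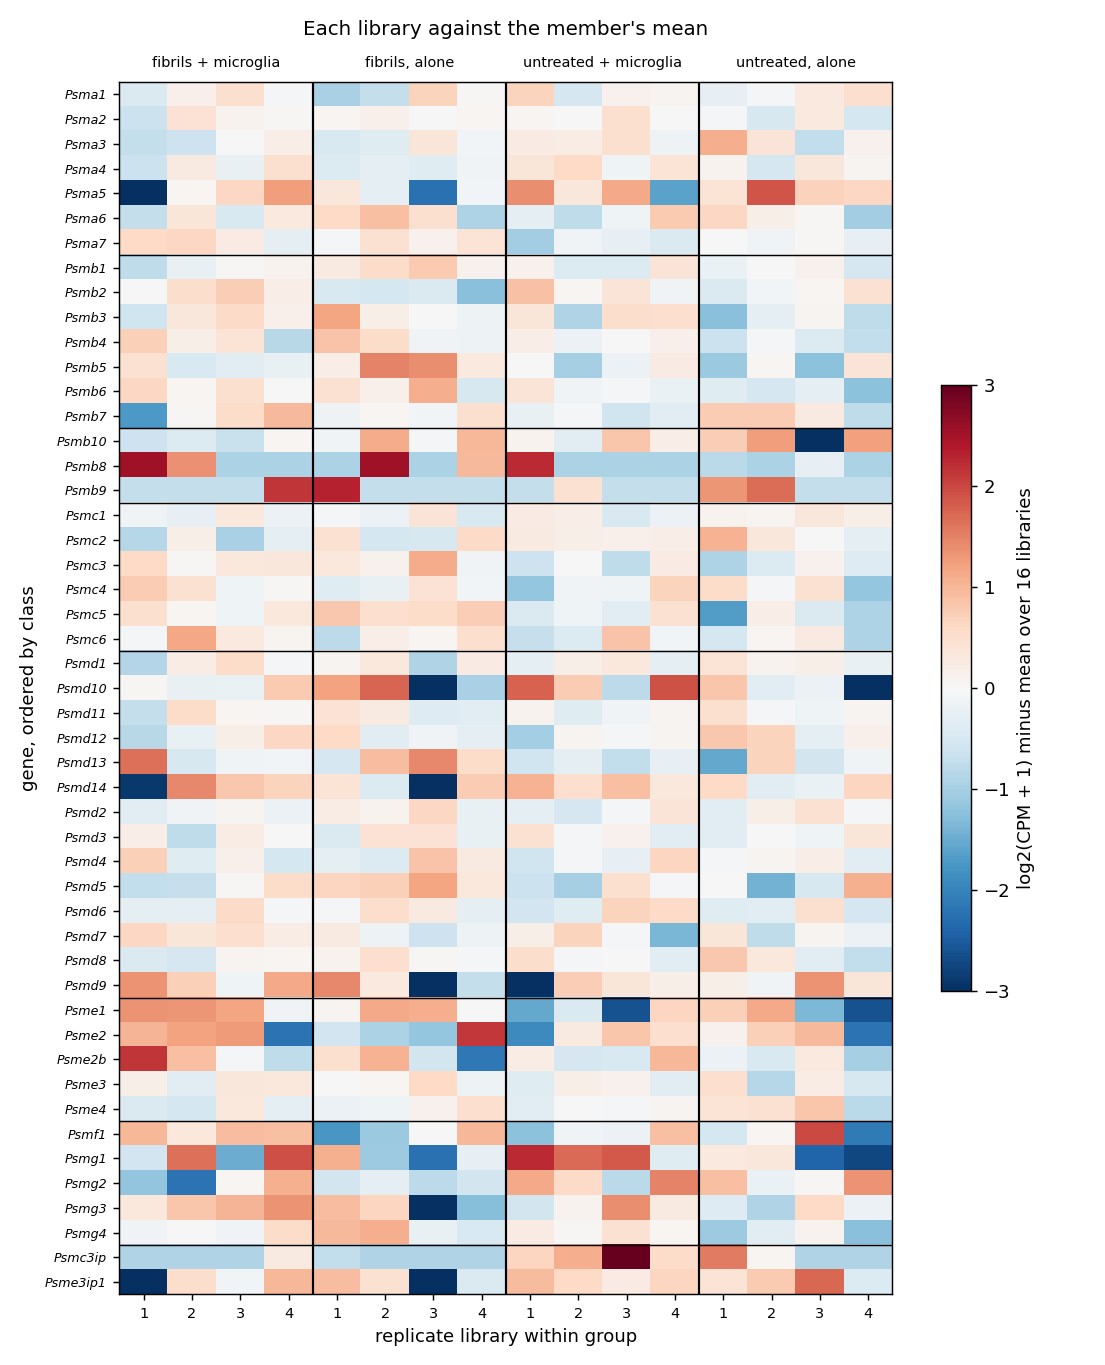
Level of each of the 49 genes in each of the 16 libraries, coloured as log2(CPM + 1) minus the mean of the gene over all libraries, with colours ending at -3 and 3; rows are genes ordered by class and columns are libraries ordered by group, with loaded co-cultures at the left and untreated neurons alone at the right. Most rows of the core and cap are pale across all 4 groups, and the strongest colours lie in genes of low level such as Psmb8, Psmb9, Psmd9, Psmd10 and Psmc3ip and in single libraries of Psma5 and Psmd14.

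Most members with a mean of 20 to 400 CPM were steadier between libraries of a group than the median gene of that range. For the 41 members with a mean of 20 to 400 CPM, the median coefficient of variation within groups was 33.5%, against 46.0% for the 6709 genes of that range. The fitted biological coefficient of variation gave medians of 0.44 for the members and 0.59 for all genes of the range. These are descriptions over genes of the same libraries, with no test. Levels were not matched within the range, and members of low level varied more. The steadiest were Psmc1, the ATPase whose tail opens the gate of the core, at 18.6%, then Psma7 and Psma2 at 19.4% each and Psmd2 at 21.5%. The least steady were genes of low count, namely Psmb9 (179.5%), Psmc3ip (175%) and Psmb8 (162%).

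A few libraries held gaps in single members. In replicate 3 of loaded neurons alone 9 of 49 members (18.4%) lay more than 4 times below their own median, as did 20.4% of all genes in that library. Among them was Psmd14, with a count of 14 and a level of 1.91 CPM, beside 41.9 to 95.5 CPM in the other 3 libraries of its group. Psmd14 also stood at 6.62 CPM and Psma5 at a count of 0 in replicate 1 of loaded co-cultures, where 4 members (8.16%) and 22.9% of all genes lay that far below their medians. In replicate 4 of untreated neurons alone 7 members had a count of 0 and 6 lay more than 4 times below their median, as did 17.8% of all genes.

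For fibril loading of neurons kept alone, no member passed the test. The smallest p-values belonged to the beta subunits Psmb5 and Psmb6 and the ATPase Psmc5, each with a log2 change above 0, while 2 of 7 constitutive beta subunits and 3 of 6 ATPases had log2 changes below 0. With edgeR 0 of 49 members and 0% of all genes tested were called. DESeq2 and limma-voom also called 0 members, as did limma on the normalized table of the authors. At an unadjusted p under 0.05, 7 members were higher and 0 lower, which is 14.3% and 0% of the members, where 4.03% of all genes were higher and 2.89% lower. These were 4 of 7 constitutive beta subunits, 2 of 6 ATPases and 1 core chaperone, with 0 of 7 alpha subunits and 0 of 14 other cap genes. Their adjusted p-values were 0.632 to 0.697. The count of 7 was 4 to 8 under the other tools and scalings, where 3.17% to 4.67% of all genes were higher. It was 3 without replicate 1 of untreated neurons alone (5.13% of all genes) and 4 without its replicate 4 (2.85%). Without replicate 1, 2 or 3 of loaded neurons alone it was 5 (3.5%, 3.1% and 3.3% of all genes).

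Psmb5 (chr14:54614119-54618022, minus strand, GRCm38), the chymotrypsin-like subunit that proteasome inhibitors target first, had 219, 538, 509 and 235 CPM in loaded neurons alone, against 88.4, 201, 80.6 and 253 CPM in untreated neurons alone. Replicates 2 and 3 of the loaded neurons stood above all others, and the groups overlapped. The log2 change was 1.27 ± 0.41 (95% interval 0.42 to 2.12, unadjusted p = 0.00522, adjusted p = 0.632 by edgeR). Psmb5 has a named pseudogene copy, and the counting could split reads between them.

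Psmc5 (chr11:106256154-106263120, plus strand, GRCm38), an ATPase of the cap, had 106, 86.3, 88.9 and 102 CPM in loaded neurons alone and 18.2, 69.3, 44.6 and 31.5 CPM in untreated neurons alone. All 4 loaded libraries lay above all 4 untreated ones, by a log2 change of 1.23 ± 0.42 (95% interval 0.37 to 2.09, unadjusted p = 0.00706, adjusted p = 0.643 by edgeR). It was the only member whose groups did not overlap with loaded neurons higher, where 1.96% of all genes had such groups.

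Psmb6 (chr11:70525367-70527858, plus strand, GRCm38), the caspase-like subunit, had 192, 153, 295 and 99.2 CPM in loaded neurons alone and 108, 97.1, 112 and 58.3 CPM in untreated neurons alone. Replicate 4 of the loaded neurons, the lowest of its group, lay within the untreated range, and the log2 change was 0.98 ± 0.34 (unadjusted p = 0.00935, adjusted p = 0.683 by edgeR). Psmb6 also has named pseudogene copies.

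The promoters of these 3 genes are shown because they had the smallest p-values of the comparison and because antioxidant response elements are the known route by which Nfe2l1 reaches proteasome genes. Each runs from 250 bases before to 50 after the start site on the gene's own strand, 300 bases from RefSeq on GRCm38.p6. Capitals mark a match to TGACNNNGC, the core of the antioxidant response element. The windows are chr14:54617946-54618245 (minus strand), chr11:106255935-106256234 (plus strand) and chr11:70525107-70525406 (plus strand).
Psmb5: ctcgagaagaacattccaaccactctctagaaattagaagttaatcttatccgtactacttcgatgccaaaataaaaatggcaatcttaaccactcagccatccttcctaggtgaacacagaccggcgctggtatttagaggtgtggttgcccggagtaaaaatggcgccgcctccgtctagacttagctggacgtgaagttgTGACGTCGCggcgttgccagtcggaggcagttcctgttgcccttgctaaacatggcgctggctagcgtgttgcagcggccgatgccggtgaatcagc
Psmc5: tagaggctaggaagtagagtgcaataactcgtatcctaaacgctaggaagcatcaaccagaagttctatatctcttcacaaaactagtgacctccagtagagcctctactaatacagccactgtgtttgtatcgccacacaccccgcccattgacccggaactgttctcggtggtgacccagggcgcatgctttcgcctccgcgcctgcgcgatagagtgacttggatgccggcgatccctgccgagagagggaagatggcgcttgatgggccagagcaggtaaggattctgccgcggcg
Psmb6: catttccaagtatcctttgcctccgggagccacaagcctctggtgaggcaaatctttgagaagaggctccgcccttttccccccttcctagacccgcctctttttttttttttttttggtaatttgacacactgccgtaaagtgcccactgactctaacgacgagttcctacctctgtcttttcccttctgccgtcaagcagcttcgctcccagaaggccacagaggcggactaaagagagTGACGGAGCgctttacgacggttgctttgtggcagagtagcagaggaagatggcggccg
The match in Psmb5 begins at base -47 and the match in Psmb6 at base -9 from the start site, and the Psmc5 window holds none. Promoters were found for 42 of the 49 members, 46 windows in all. TGACNNNGC, searched on both strands, was in 6 of them (13%: Psmb5, Psmb6, Psmc6, Psmd12, Psmd9 and Psme4) and in 12.4% of all 32851 promoters in the RefSeq table. CCAAT, the box bound by NF-Y, was in 15 (32.6%) and in 37.4% of all. The core of an interferon-stimulated element, GAAA, any 2 bases, and GAAA again, was in 5 (10.9%: Psmb3, Psmd4, Psmd9, Psme1 and Psmg4) and in 3.44% of all. A match is a description of these letters and not a bound site.

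Of the other 4 members under an unadjusted p of 0.05, Psmc3, the most abundant ATPase, had 276, 239.5, 476 and 205 CPM in loaded neurons alone and 114, 165, 242 and 168 CPM in untreated neurons alone (log2 change 0.79 ± 0.33). Psmb4, the most abundant beta subunit, had 424, 345, 217 and 209 CPM in loaded and 148, 228, 174 and 139 CPM in untreated neurons alone (log2 change 0.79 ± 0.33). For both genes the groups overlapped by the lowest loaded and the highest untreated libraries. Psmb3, a structural beta subunit, averaged 209 ± 99.6 CPM in loaded and 114 ± 43.8 CPM in untreated neurons alone (SD, n = 4 each), with replicate 1 of the loaded neurons at 357 CPM. Psmg4, a chaperone of core assembly, averaged 66.6 ± 34.6 CPM in loaded and 32.1 ± 14.7 CPM in untreated neurons alone (SD, n = 4 each).

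**Figure D2:**
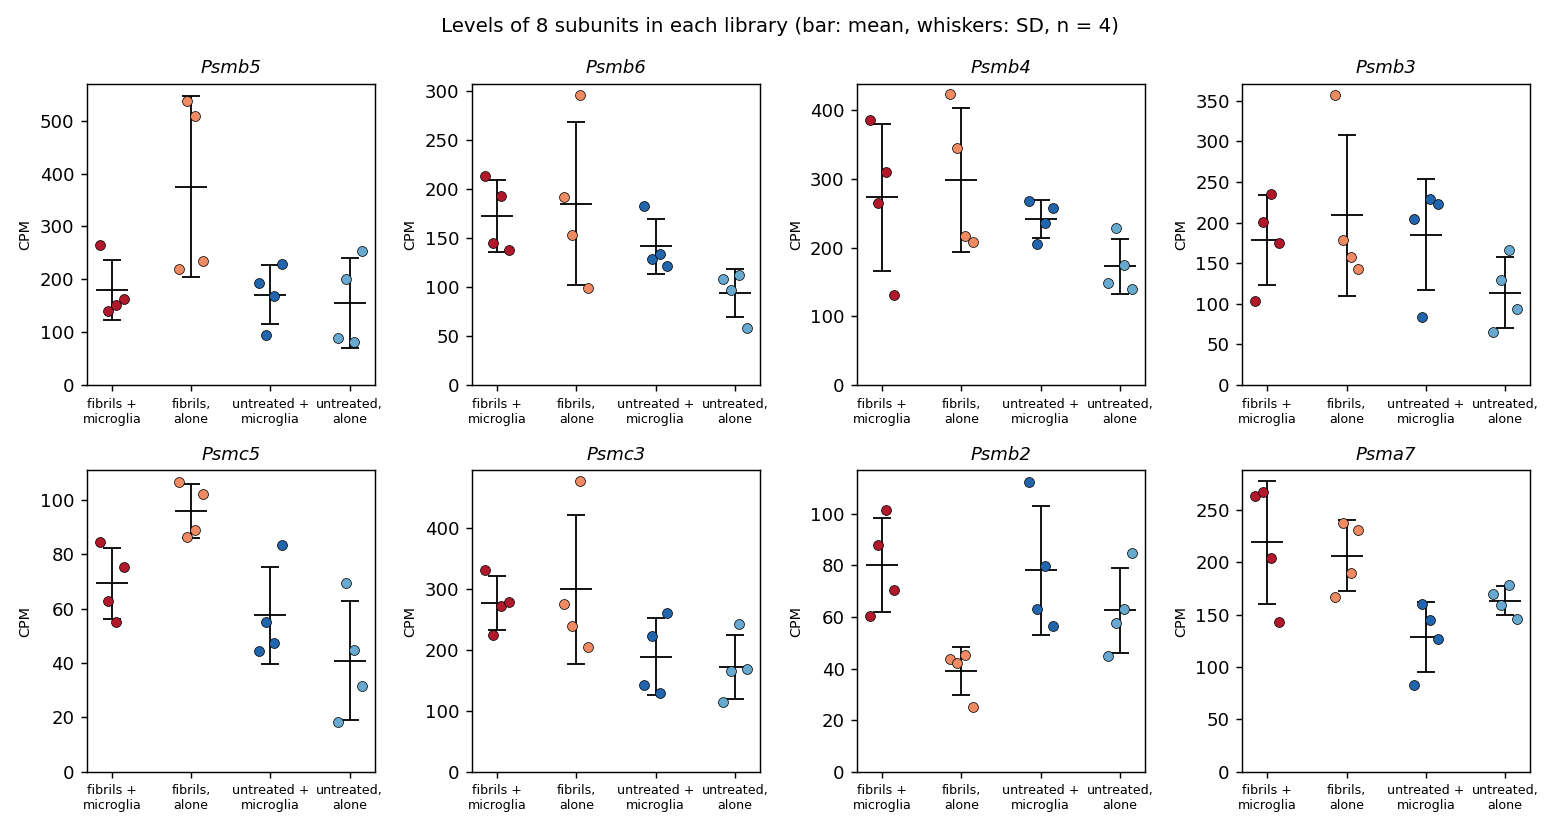
Level in CPM (vertical axis) of single subunits in each of the 16 libraries, with the groups along the horizontal axis in the order loaded with microglia, loaded alone, untreated with microglia, untreated alone; points are libraries, and the line with whiskers is the mean ± SD of 4. For Psmc5 the loaded libraries kept alone (86.3 to 106 CPM) lie above all untreated libraries kept alone (18.2 to 69.3 CPM), while for Psmb5 they overlap.

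The beta subunits with log2 changes below 0 were Psmb2, with 43.8, 42.3, 45.1 and 24.9 CPM in loaded neurons alone and 45.0, 57.8, 63.1 and 84.6 CPM in untreated neurons alone (log2 change -0.68 ± 0.39), and Psmb7, the trypsin-like subunit, with 32.1 ± 7.06 and 39.1 ± 16.1 CPM (SD, n = 4 each). The 7 constitutive beta subunits had a median log2 change of 0.79, with 5 above and 2 below 0. The 7 alpha subunits had a median of -0.25, with 3 above and 4 below 0, and the median over all genes was -0.06, with 47.5% of them above 0. The cap had a median of 0.07 over 20 genes, which was -0.01 with library totals in place of TMM. Psma5, with 28.7, 18.3, 3.97 and 20.9 CPM in loaded and 30.1, 85.7, 36.5 and 35.0 CPM in untreated neurons alone, and the core chaperone Psmg2, with 14.4, 17.4, 12.2 and 14.5 CPM in loaded and 41.3, 18.6, 22.1 and 57.0 CPM in untreated neurons alone, were the 2 members with all loaded libraries below all untreated ones. Such groups were found in 2.22% of all genes, and neither gene had an unadjusted p under 0.05.

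Summed over its 17 genes, the core stood at 2187, 2401, 2380.4 and 1766 CPM in loaded neurons alone and at 1635, 1749, 1649 and 1531 CPM in untreated neurons alone. The means were 2184 ± 295 and 1641 ± 89.4 CPM (SD, n = 4 each), and the lowest loaded library lay just above the highest untreated one. With library totals the nearest libraries were 1702 CPM loaded and 1726 CPM untreated. With edgeR's relative log expression (RLE) scaling they were 1742 and 1759 CPM, so that the groups overlapped under both. The summed cap was 2753 ± 277 CPM in loaded and 2411 ± 197 CPM in untreated neurons alone, and its ranges, 2511 to 3129.5 and 2119 to 2546 CPM, overlapped. The ratio of core to cap was 0.79 ± 0.07 in loaded and 0.68 ± 0.04 in untreated neurons alone (SD, n = 4 each). The core sum, and with it the ratio, holds Psmb3, Psmb4, Psmb5 and Psmb6, listed above for their p. It is no evidence apart from them. Psmb5 alone averaged 375 CPM in loaded and 156 CPM in untreated neurons alone. Of the 7 alpha subunits 3 had log2 changes above and 4 below 0. Since the members were chosen with earlier results known, these sums carry no p.

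**Figure D3:**
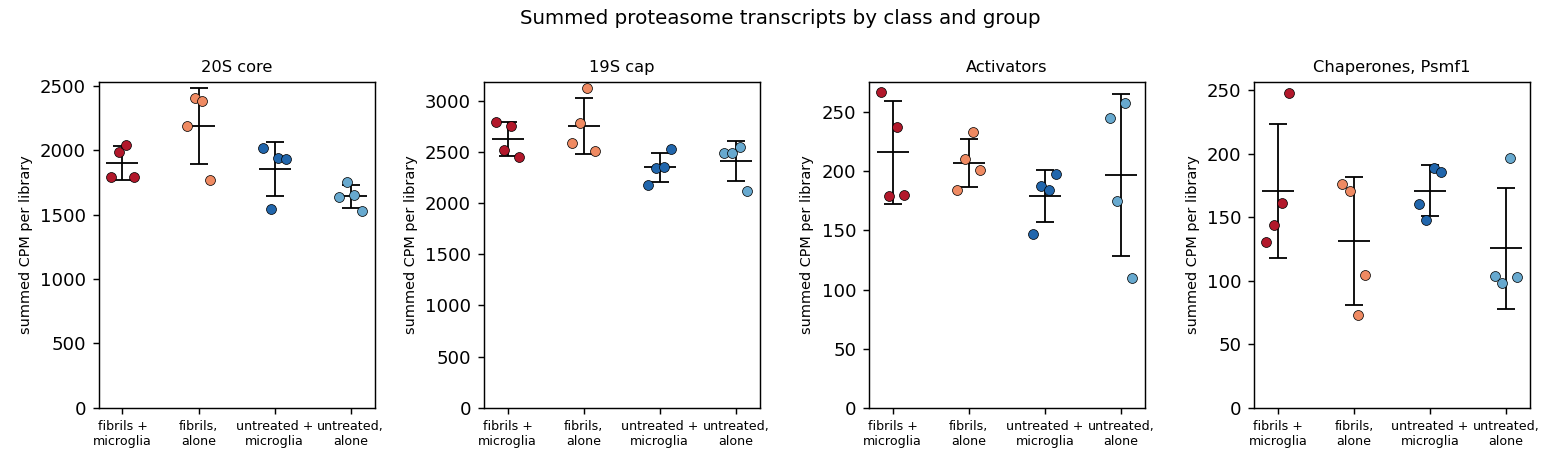
Summed level in CPM (vertical axis) of the core, the cap, the activators and the core chaperones with the inhibitor in each of the 16 libraries, by group in the order loaded with microglia, loaded alone, untreated with microglia, untreated alone; points are libraries, and the line with whiskers is the mean ± SD of 4. The core of loaded neurons alone (1766 to 2401 CPM) does not overlap with that of untreated neurons alone (1531 to 1749 CPM), while the other classes overlap between all groups compared here. The core sum includes Psmb3, Psmb4, Psmb5 and Psmb6, listed in the text for their p, and its groups overlap under library totals and RLE scaling.

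In co-culture with microglia, the same comparison of loaded with untreated neurons gave log2 changes above 0 for 26 members and below 0 for 23, where 47.1% of all genes were above 0. With edgeR 0 of 49 members and 0% of all genes were called, and at an unadjusted p under 0.05 there was 1 member higher and 0 lower, where 1.54% of all genes were higher and 2.14% lower. DESeq2 and limma-voom called 0 members as well. That member was Psma7 (chr2:180036374-180042433, minus strand, GRCm38), a subunit of the alpha ring. It had 263, 267, 204 and 143 CPM in loaded and 83.0, 161, 145 and 127 CPM in untreated co-cultures, with replicate 4 of the loaded ones inside the untreated range. Its log2 change was 0.77 ± 0.30 (unadjusted p = 0.0173, adjusted p = 1 by edgeR).

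The 7 members listed for neurons alone had log2 changes of -0.10 to 0.55 here, 5 above and 2 below 0, with unadjusted p-values of 0.111 to 0.897. The libraries of this comparison are not those of the one in neurons alone. Psmb5 averaged 179.7 ± 57.2 CPM in loaded and 171 ± 56.0 CPM in untreated co-cultures (SD, n = 4 each), with 0.07 ± 0.40 as its log2 change. Psmc5 averaged 69.3 ± 13.1 CPM in loaded and 57.5 ± 17.8 CPM in untreated co-cultures (SD, n = 4 each), with 0.27 ± 0.41 as its log2 change. The test of the difference between the fibril effect with and without microglia gave -1.20 ± 0.57 for Psmb5 (unadjusted p = 0.0481, adjusted p = 1 by edgeR) and -0.96 ± 0.58 for Psmc5 (unadjusted p = 0.112, adjusted p = 1). It called 0 members and 0% of all genes, and Psmb5 was the 1 member with an unadjusted p under 0.05 and a lower value in co-culture, where 2.35% of all genes were so (1.67% higher). A difference between the fibril effects is thus not shown.

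Psmd13, a lid subunit, had 643, 147, 190.2 and 193 CPM in loaded and 135, 168, 122 and 174 CPM in untreated co-cultures, a log2 change of 0.97 ± 0.49 (unadjusted p = 0.0609, adjusted p = 1 by edgeR). The value of 643 CPM in replicate 1, a library rich in microglial markers, set this mean: the log2 change was 0.23 without it. In neurons alone Psmd13 had 144, 389.6, 563 and 303 CPM in loaded and 70.7, 328, 139.7 and 189.7 CPM in untreated neurons (log2 change 0.94 ± 0.49, unadjusted p = 0.067). The gene overlaps Gm15542 on its own strand and Sirt3 on the other, and the strand setting of the counting is not given in the sources used here. On the low side Psmc2, an ATPase, had 51.7, 106, 47.6 and 78.2 CPM in loaded and 113, 107, 104 and 108 CPM in untreated co-cultures (log2 change -0.61 ± 0.38, unadjusted p = 0.125), the untreated libraries lying close together.

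Averaged over both cultures, 8 loaded against 8 untreated libraries, edgeR called 0 members and 0% of all genes, with a lowest adjusted p among members of 0.644. At an unadjusted p under 0.05, 6 members (12.2%) were higher and 1 (2.04%) lower, where 3.58% of all genes were higher and 3.04% lower. Psmc3 had 0.67 ± 0.23 (unadjusted p = 0.00884), Psmd13 0.96 ± 0.35, Psmc5 0.75 ± 0.29, Psmb5 0.67 ± 0.29, Psmb6 0.63 ± 0.24 and Psma7 0.55 ± 0.21 as log2 changes. Psmc3 lay at 331, 224, 272 and 279 CPM in loaded and 142, 223, 129.8 and 260.4 CPM in untreated co-cultures, so that its mean was higher in loaded libraries in both settings with overlapping libraries. Psmc3 overlaps Slc39a13 on the other strand. The member on the low side was Psmc3ip, described with the genes of low count.

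**Figure D4:**
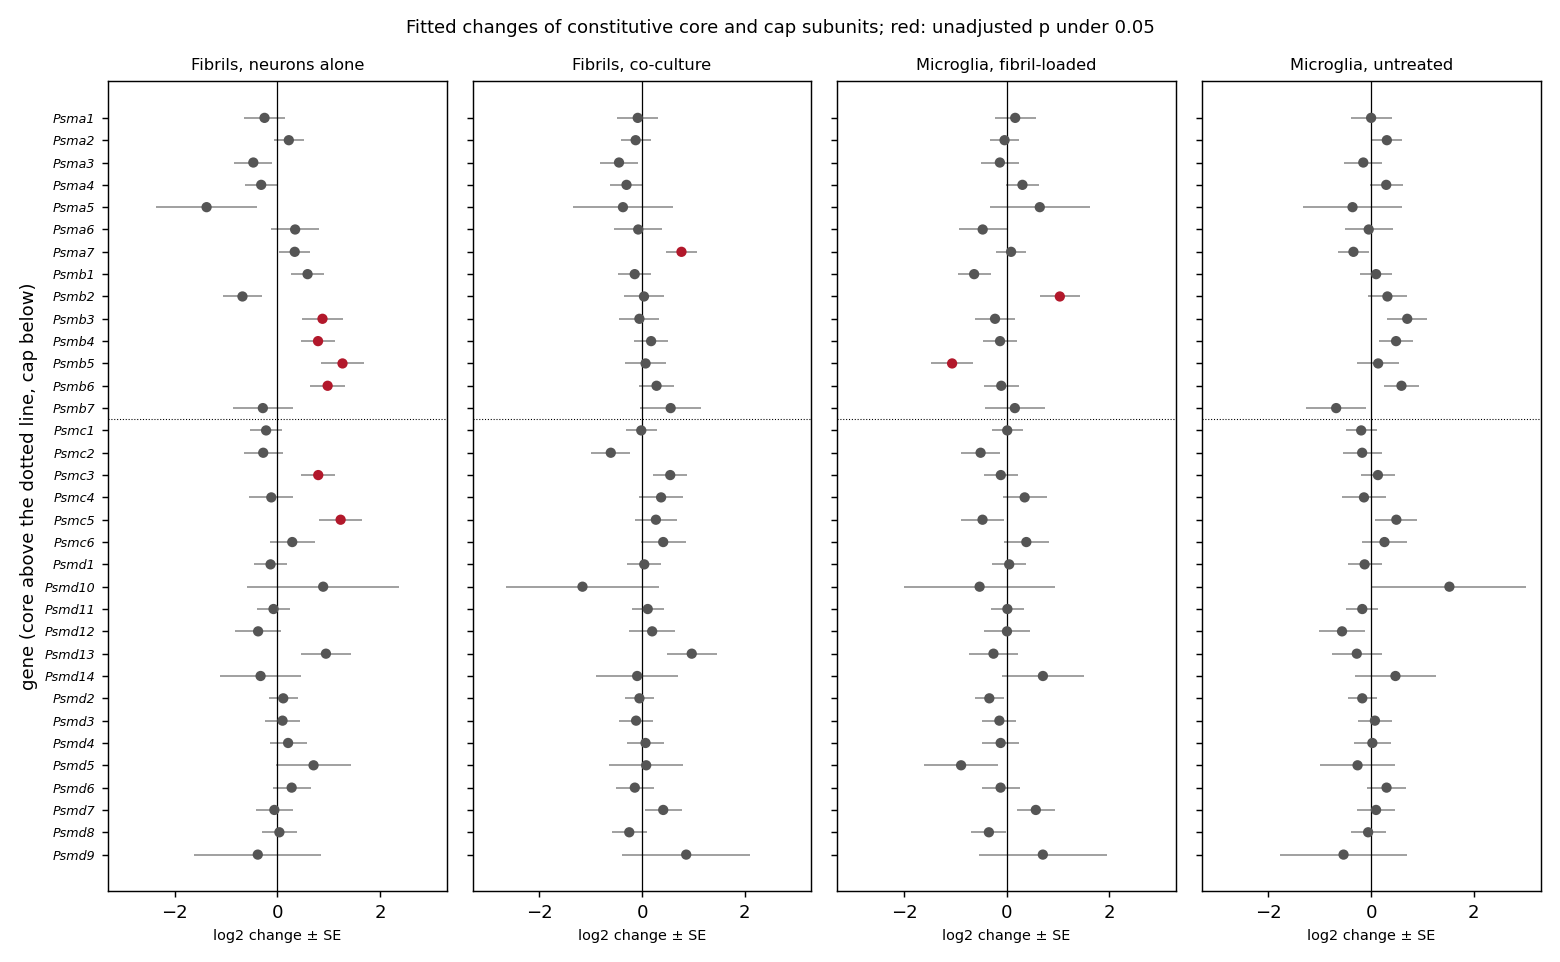
Log2 change of each constitutive core and cap gene (points, with bars for ± 1 SE from edgeR) in the 4 pairwise comparisons, one panel each; genes run down the vertical axis with the core above the dotted line, and positive values on the horizontal axis are higher in loaded libraries (fibril panels) or in co-culture (microglia panels). Red marks an unadjusted p under 0.05, which in neurons alone are Psmb3, Psmb4, Psmb5, Psmb6, Psmc3 and Psmc5, in co-culture Psma7, with microglia in loaded neurons Psmb2 and Psmb5, and none in untreated neurons.

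Microglia kept with loaded neurons were compared with loaded neurons alone. In the beta ring the log2 change was above 0 for Psmb2 and below 0 for Psmb5, and neither passed the test. Calls with edgeR were 0 of 49 members, where 0.114% of all genes were called, and DESeq2 and limma-voom called 0 members too. At an unadjusted p under 0.05, 1 member was higher and 1 lower (2.04% each), where 5.46% of all genes were higher and 6.26% lower. These loaded libraries kept alone are the ones that the fibril comparison in neurons alone used.

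Psmb2 (chr4:126677630-126709714, plus strand, GRCm38), a structural beta subunit, had 60.4, 88.0, 102 and 70.4 CPM in co-culture and 43.8, 42.3, 45.1 and 24.9 CPM alone. All 4 co-culture libraries lay above all 4 libraries of neurons alone, with a log2 change of 1.04 ± 0.39 (95% interval 0.23 to 1.85, unadjusted p = 0.0141, adjusted p = 0.311 by edgeR). In untreated neurons Psmb2 had 112, 63.2, 79.8 and 56.5 CPM in co-culture and 45.0, 57.8, 63.1 and 84.6 CPM alone, overlapping groups with a log2 change of 0.32 ± 0.39. Averaged over both microglia comparisons it was 0.68 ± 0.27 (unadjusted p = 0.0215, adjusted p = 0.209 by edgeR), the smallest adjusted p of any member in the 7 comparisons.

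Psmb5 had 264, 140.2, 151 and 163 CPM in co-culture of loaded neurons, against the 219 to 538 CPM of loaded neurons alone given above, a log2 change of -1.06 ± 0.41 (unadjusted p = 0.0161, adjusted p = 0.327 by edgeR). Replicate 1 of the co-cultures, at 264 CPM, lay within the range of loaded neurons alone. Psmb1, a structural beta subunit, had 74.1, 109, 130.5 and 136 CPM in co-culture and 153, 186, 219.7 and 138 CPM alone, without overlap (log2 change -0.63 ± 0.32, unadjusted p = 0.06). Psmb1 and Psmc5 were the 2 members with all co-culture libraries lower, and Psmb2 the 1 with all higher, where 2.91% and 3.41% of all genes had such groups. Psmd7, the lid partner of the deubiquitinase Psmd14, had 241, 202, 222 and 183 CPM in co-culture and 189, 141, 102 and 139.8 CPM alone (log2 change 0.57 ± 0.36, unadjusted p = 0.131).

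The summed core was 1902 ± 131 CPM in loaded co-cultures and 2184 ± 295 CPM in loaded neurons alone (SD, n = 4 each), with overlapping libraries. Over its 17 genes the median log2 change was -0.10, which was 0.19 with library totals, a scaling that also moved the median of all genes up by 0.21. The cap had 2628 ± 169.7 CPM in co-culture and 2753 ± 277 CPM alone (SD, n = 4 each), with a median log2 change of -0.11, which was 0.10 with library totals.

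In untreated neurons the presence of microglia left still fewer members apart. With edgeR 0 of 49 members were called, where 0.122% of all genes were, and 0 members had an unadjusted p under 0.05, where 4.6% of all genes were higher and 4.51% lower at that level. DESeq2 and limma-voom also called 0 members. The smallest p among the members belonged to Psmb3, with 205, 84.2, 229 and 223 CPM in co-culture and 65.8, 129, 167 and 93.1 CPM alone (log2 change 0.70 ± 0.39, unadjusted p = 0.0862, adjusted p = 0.663 by edgeR). Psmb6 had 183, 129, 133 and 121 CPM in co-culture and 108, 97.1, 112 and 58.3 CPM alone, the 1 member whose groups did not overlap, where 3.77% of all genes had such groups with co-cultures higher and 3.81% with co-cultures lower. Its log2 change was 0.59 ± 0.34 (unadjusted p = 0.0978).

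On the low side Psmb7 averaged 24.4 ± 4.08 CPM in untreated co-cultures and 39.1 ± 16.1 CPM in untreated neurons alone, and the lid subunit Psmd12 43.3 ± 13.4 and 64.1 ± 21.2 CPM (SD, n = 4 each). Their log2 changes were -0.68 ± 0.59 and -0.57 ± 0.46. The summed core was 1856 ± 209.9 CPM in co-culture and 1641 ± 89.4 CPM alone, and the summed cap 2349.8 ± 142 and 2411 ± 197 CPM (SD, n = 4 each), with overlapping libraries in both. Averaged over loaded and untreated neurons, microglia gave 0 called members where 2.19% of all genes were called by edgeR, and 1 member higher and 0 lower at an unadjusted p under 0.05, where 7.72% and 8.79% of all genes were.

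How far these data limit a change can be read from the intervals. The 95% interval of the log2 change lay wholly between -1 and 1 for 12 of 49 members in the fibril comparison of neurons alone (24.5%), 19 in that of co-cultures (38.8%), 17 in the microglia comparison of loaded neurons (34.7%) and 18 in that of untreated neurons (36.7%). For all genes the shares were 6.29%, 8.63%, 4.95% and 5.66%. These shares are not matched for level: 41 of 49 members had a mean of 20 to 400 CPM, against 6709 of 13139 genes tested. In the averages it did so for 25 members (51%) for fibrils and 29 (59.2%) for microglia, where 19.9% and 15.3% of all genes did, and in the interaction for 2 (4.08%), where 1.02% did. For each of the remaining members the interval reached past -1 or past 1, so that a 2-fold change was not excluded on at least that side, and a p above the threshold does not show that levels were alike.

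Of the immunoproteasome, which interferon and immune cells bring in, Psmb8 and Psmb9 were low in all groups, with means of 2.27 and 1.39 CPM over the 16 libraries. Psmb10 averaged 28.8 CPM, beside 32.8 CPM for the constitutive Psmb7. Psmb10, the replacement for Psmb7, had 14.2, 16.6, 13.8 and 23.4 CPM in loaded co-cultures, 20.9, 49.9, 21.6 and 45.5 in loaded neurons alone, 24.0, 17.9, 40.4 and 25.9 in untreated co-cultures and 38.1, 54.6, 0.129 and 53.4 in untreated neurons alone. Its group means were 17.0 ± 4.43, 34.5 ± 15.4, 27.1 ± 9.53 and 36.6 ± 25.4 CPM in that order (SD, n = 4 each), the higher ones without microglia and all overlapping, and the lowest library was replicate 3 of untreated neurons alone, which held a single count. Between groups it did not pass the test: of the 4 pairwise comparisons the lowest unadjusted p was that of loaded co-cultures against loaded neurons alone, 0.247 (log2 change -1.02 ± 0.86).

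Psmb8, the replacement for Psmb5, had a count of 0 in 9 libraries and Psmb9, the replacement for Psmb6, in 11. A count of 0 allows a level of up to 0.220 to 0.473 CPM depending on the library (3 counts, counting error only). Psmb8 stood at 10.4, 4.03, 0 and 0 CPM in loaded co-cultures, 0, 10.3, 0 and 2.78 in loaded neurons alone, 8.09, 0, 0 and 0 in untreated co-cultures and 0.117, 0, 0.643 and 0 in untreated neurons alone. Its levels of 10.4 and 8.09 CPM fell in the co-culture libraries with the most microglial markers (1343 and 658 CPM), and a like level of 10.3 CPM in a library of loaded neurons alone with 26.7 CPM of those markers. Psmb9 reached at most 7.21 CPM, in replicate 1 of loaded neurons alone, and was at 0 in both libraries rich in microglial markers. Psmb9 overlaps Tap1, a transporter for antigen peptides, on the other strand.

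**Figure D5:**
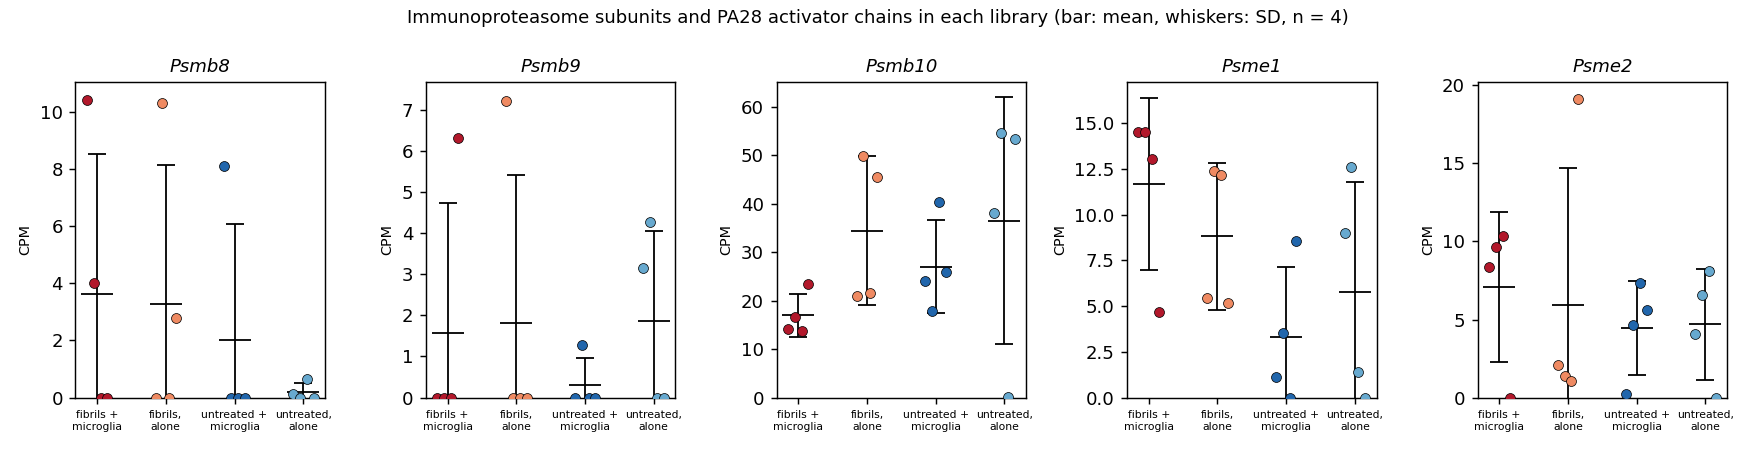
Level in CPM (vertical axis) of Psmb8, Psmb9, Psmb10, Psme1 and Psme2 in each of the 16 libraries, by group in the order loaded with microglia, loaded alone, untreated with microglia, untreated alone; points are libraries, and the line with whiskers is the mean ± SD of 4, with whiskers that would fall below 0 ending there. Psmb8 and Psmb9 are at or near 0 in most libraries, and Psmb10 reaches 54.6 CPM.

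Of the activators, Psme3, the nuclear activator, and Psme4, a large single-chain activator, carried most of the signal. Psme3 had 98.4, 68.6, 109.5 and 108 CPM in loaded co-cultures, 86.5, 90.6, 131 and 77.3 in loaded neurons alone, 67.4, 98.3, 95.7 and 69.6 in untreated co-cultures and 124, 47.1, 101 and 61.7 in untreated neurons alone. Psme4 averaged 59.1 ± 17.0, 73.2 ± 16.5, 64.5 ± 7.68 and 85.8 ± 34.7 CPM in the same 4 groups (SD, n = 4 each). Neither differed by more than the spread between libraries in any comparison.

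Psme1 and Psme2, which form the interferon-inducible activator ring, were low. Psme1 had 14.5, 14.5, 13.0 and 4.69 CPM in loaded co-cultures and 1.11, 3.53, 0 and 8.58 CPM in untreated co-cultures, with replicate 4 of the loaded ones in the untreated range (log2 change 1.82 ± 1.77, unadjusted p = 0.315). In neurons alone it had 5.47, 12.4, 12.2 and 5.18 CPM in loaded and 9.02, 12.6, 1.41 and 0 CPM in untreated libraries. Psme2 averaged 5.54 CPM and its copy Psme2b, an intronless gene of nearly the same sequence on another chromosome, 26.7 CPM over the 16 libraries. Counting could split their reads, so the levels of both are uncertain. Summed over the 5 genes, activators stood at 216 ± 43.8 CPM in loaded co-cultures, 207 ± 20.4 in loaded neurons alone, 179 ± 22.2 in untreated co-cultures and 197 ± 68.8 in untreated neurons alone (SD, n = 4 each), with overlap throughout.

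The core chaperones and the inhibitor Psmf1 were variable. Psmg4 was the most abundant (50.9 CPM as the mean over all libraries) and Psmg1, which pairs with Psmg2 to start the alpha ring, the least (10.1 CPM). Psmg1 had 30.3, 20.6, 22.8 and 4.12 CPM in untreated co-cultures and 7.14, 7.39, 0.257 and 0 CPM in untreated neurons alone (log2 change 2.39 ± 1.63, unadjusted p = 0.155), a wide interval of -0.98 to 5.76. Psmf1 had 36.4 ± 7.21 CPM in loaded co-cultures and 18.9 ± 16.2 CPM in loaded neurons alone, against 20.7 ± 12.9 CPM in untreated co-cultures and 30.5 ± 35.8 CPM in untreated neurons alone (SD, n = 4 each).

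Psmc3ip, which is no subunit, was near 0 in loaded libraries. Its counts were 0, 0, 0 and 11 in loaded co-cultures, 1, 0, 0 and 0 in loaded neurons alone, 24, 21, 315 and 15 in untreated co-cultures and 38, 8, 0 and 0 in untreated neurons alone. In co-culture all loaded libraries lay below all untreated ones in CPM, as for 1.04% of all genes (0.906% the other way), while in neurons alone the groups overlapped at 0. The average over both cultures had an unadjusted p of 0.0263 and an adjusted p of 0.747 by edgeR, and no fold is given at such counts. Psmc3ip met the count rule only through the untreated co-cultures, since outside them only the counts of 11 and 38 reached its minimum. The groups without overlap and the unadjusted p thus lean on the libraries that admitted the gene. No fibril effect is read from them. The count of 315 came from a single library, and Psmc3ip overlaps Mlx on the other strand.

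Genes that work with the proteasome were read from lists chosen with earlier results known, and 0 of their tested genes were called by edgeR in any of the 7 comparisons. Of all genes 0% were called in the fibril comparisons, their average and the interaction, 0.114% and 0.122% for microglia in loaded and in untreated neurons, and 2.19% in the average over microglia. The lists held 13 tested partners and assembly factors, 10 genes of the Nfe2l1 pathway, 16 of ubiquitin supply and shuttling, and 12 of antigen processing and interferon. Among the partners, 11 of 13 lay below 0 for fibrils in neurons alone, with a median log2 change of -0.74 beside -0.06 for all genes and 1 higher and 2 lower at an unadjusted p under 0.05 (4.03% and 2.89% of all genes). Akirin2, which brings proteasomes into the nucleus, had -1.62 ± 0.52 (unadjusted p = 0.00458, adjusted p = 0.627) and Txnl1, a thioredoxin on the cap, -0.85 ± 0.36. For microglia in untreated neurons 11 of 13 also lay below 0 (median -0.55), and both comparisons use the libraries of untreated neurons alone. There Akirin2 averaged 106 CPM, beside 34.2 to 62.8 CPM in the other groups, and Txnl1 114 CPM, beside 63.4 to 92.5 CPM. In co-culture the same list had a median of 0.06 for fibrils, with 7 above and 6 below 0 (47.1% of all genes above). Zfand5, a zinc-finger protein that activates the proteasome, had log2 changes with microglia of -0.64 ± 0.32 in loaded and -0.98 ± 0.32 in untreated neurons, and of -0.81 ± 0.23 on average (adjusted p = 0.058 by edgeR), which does not pass.

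Of the 10 tested genes of the Nfe2l1 pathway, 5 lay above and 5 below 0 with microglia in loaded neurons (median log2 change -0.06). In untreated neurons 2 lay above and 8 below (median -0.83). For fibrils, 2 lay above and 8 below 0 in neurons alone (median -0.51) and 6 above and 4 below in co-culture (median 0.15). Of all genes 47.1% to 49.1% lay above 0 in these comparisons. Fbxw7, part of a ubiquitin ligase that targets Nfe2l1 for degradation, had log2 changes with microglia of -1.59 ± 0.66 in loaded and -1.91 ± 0.67 in untreated neurons. On average it had -1.75 ± 0.47 (adjusted p = 0.0619 by edgeR). Nfe2l1 itself had -0.70 ± 0.24 on average (adjusted p = 0.118). Mafg, its DNA-binding partner, had -1.21 ± 0.41 for fibrils in neurons alone (unadjusted p = 0.00683, adjusted p = 0.643) and -1.40 ± 0.41 for microglia in untreated neurons (unadjusted p = 0.00227, adjusted p = 0.24). Both of these use the 4 libraries of untreated neurons alone, where Mafg averaged 147 CPM beside 55.6 to 63.6 CPM in the other 3 groups. The microglia comparisons move together with the neuronal and oligodendrocyte-lineage marker sums given above, and the part of cell type makeup in these values was not tested.

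Of the ubiquitin and shuttle genes, 13 of 16 lay above 0 for fibrils in neurons alone, with a median log2 change of 0.23 and 0 at an unadjusted p under 0.05. Uba1, the main ubiquitin-activating enzyme, had 0.55 ± 0.28 (unadjusted p = 0.0642). In co-culture 8 lay above and 8 below 0, with a median of 0.03. Ufd1, a cofactor of the unfoldase Vcp, had -0.84 ± 0.39 with microglia in untreated neurons (unadjusted p = 0.0396, adjusted p = 0.517). Of the antigen and interferon genes, 10 of 12 lay above 0 with microglia in untreated neurons and 8 of 12 in loaded neurons, with medians of 0.68 and 0.26 (49.1% and 48.7% of all genes above 0). For fibrils, 6 lay above and 6 below 0 in neurons alone (median -0.02). In co-culture 3 lay above and 9 below 0 for fibrils (median -0.59). Of all genes 47.5% and 47.1% lay above 0 there. Isg15, an interferon-induced ubiquitin-like protein, was at 0 in all 4 libraries of untreated neurons alone and is given no fold.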

How the data were processed

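Messenger RNA of 16 libraries was read with the QuantSeq 3′ FWD kit after RNeasy micro isolation, per the labels' protocols. Per the submitters' processing notes the tools were STAR, Partek and DESeq2, without versions, and the build was mm10. What counted the reads, with which strand setting and annotation, is not given in the sources used here. One deposited table holds unnormalized counts per gene symbol, and the other a score, which is the normalized value of the authors in whole numbers. Total counts were 6511516 to 13986374 per library.

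The counts were fitted in R 4.3.3 with edgeR 4.0.16: filterByExpr (minimum count 10, total 15) left 13139 of 16934 genes, scaled by TMM, in 1 robust quasi-likelihood fit with the group means as terms. Called genes had a Benjamini-Hochberg adjusted p under 0.05. CPM was counts over the kept total times the TMM factor (log2 CPM with a prior count of 2). There were 7 contrasts: microglia in untreated and in loaded neurons, fibrils in neurons alone and in co-culture, the average of each pair, and the interaction. The scripts were tested on simulated counts with known fold changes. Alternatives were DESeq2 1.42.0, limma-voom (limma 3.58.1), limma on log2(score + 1), other scalings, no filter, the compared groups alone, a replicate block and leaving out libraries. Python 3.11.15, pandas 2.3.3 and matplotlib 3.10.9 made tables and plots.

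Members and lists were chosen with earlier results of these data known. Values per library go to members with the smallest p in a comparison, the most abundant of each class, and the immunoproteasome and activators. Other members under an unadjusted p of 0.05 or with groups that do not overlap were named after their values were seen. Replicate numbers follow library codes. The codes rise by the same step from one number to the next in every group, so each number takes a library of every group from a close run of codes. The labels do not say that a number marks a shared culture or day, and the main fit has no replicate block. Libraries of a group differed by a chi-square per degree of freedom of 67.5 to 253, more than sampling noise. Positions come from GENCODE on GRCm38, matched for 48 of 49 members. Of these, 5 overlap a gene on their strand (Psma2, Psmd1, Psmd13, Psme2b and Psmg3) and 17 a gene on the other. Promoters come from RefSeq. Since PCR can copy a molecule, limits from counts cover counting error only.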

Additional observations from a re-analysis of the deposited data

Results flagged for a closer look

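In each set of 4 libraries, the highest or lowest library was set against the other 3 by Dixon's criterion for a gap. Of 128 sets, made of 25 named members and summed classes by group, 18 held such a library. Chance flags about 1 in 20 sets of values that vary smoothly, a rate that does not apply to the sets with 3 libraries at 0, where any count in the fourth meets the criterion. No cause was tested for any of them.

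Among sums, the cap stood at 2119 CPM in replicate 4 of untreated neurons alone, beside 2488 to 2546 CPM in the other 3, and core chaperones with the inhibitor at 197 CPM in replicate 3 of untreated neurons alone, beside 97.9 to 104 CPM. In loaded co-cultures, Psmd13 stood at 643 CPM in replicate 1 (others 147 to 193 CPM), Psmg4 at 69.3 CPM in replicate 4 (43.1 to 47.2 CPM) and Psme1 at 4.69 CPM in replicate 4 (13.0 to 14.5 CPM). In loaded neurons alone, Psmb3 stood at 357 CPM in replicate 1 (143 to 178 CPM), Psmb2 at 24.9 CPM in replicate 4 (42.3 to 45.1 CPM) and Psme2 at 19.1 CPM in replicate 4 (1.09 to 2.11 CPM). In untreated co-cultures, Psmb3 stood at 84.2 CPM in replicate 2 (205 to 229 CPM), Psmd12 at 23.4 CPM in replicate 1 (46.9 to 51.5 CPM), Psma2 at 313 CPM in replicate 3 (221 to 235 CPM) and Psmc3ip at 23.8 CPM in replicate 3 (1.72 to 2.96 CPM).

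The remaining sets had 1 library above 0 and 3 at 0. These were Psmc3ip at 1.26 CPM in replicate 4 of loaded co-cultures and at 0.124 CPM in replicate 1 of loaded neurons alone, and Psmb8 at 8.09 CPM in replicate 1 of untreated co-cultures. They also held Psmb9 at 6.30 CPM in replicate 4 of loaded co-cultures, at 7.21 CPM in replicate 1 of loaded neurons alone and at 1.27 CPM in replicate 2 of untreated co-cultures.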

How the results depend on the processing

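In all, 1554 values were recomputed under the alternatives, of which 1498 stayed on their side of the threshold or within their spread and 56 moved. Of these, 51 were counts of called genes over all genes tested, which matter here only as background. The count of called members was 0 in each of the 7 contrasts under each alternative run, and the lowest adjusted p of any member under any of them was 0.072 (Psmb2, average of the microglia contrasts). With library totals in place of TMM, the cap median for microglia in untreated neurons was 0.13, the core and cap medians for microglia in loaded neurons 0.19 and 0.10, the cap median for the averaged microglia contrast 0.18, and the summed cap of untreated co-cultures 2591 CPM. That scaling moved the median of all genes by 0.21 for microglia in untreated neurons and by 0.21 in loaded neurons. Relative to the median of all genes these medians were -0.06, 0.01, -0.08 and -0.01. Without both libraries rich in microglial markers the core median for fibrils in co-culture was 0.18. DESeq2 called far more genes overall (229 for fibrils in neurons alone, 180 in co-culture, 379 and 603 for microglia in untreated and loaded neurons, 1205 and 280 for the averages, 233 for the interaction). The main counts were 0, 0, 16, 15, 288, 0 and 0 in that order. With the replicate block, 0 members were called in each contrast, while 38, 42 and 366 genes were called for the microglia contrasts and their average. At an unadjusted p under 0.05, 6 members were higher for fibrils in neurons alone, where 3.84% of all genes were. Deviations from the group means correlated by -0.10 to 0.22 between libraries of the same number, over 0.1 in 4 of 24 pairs (median 0.04, against -0.01 for other numbers). Of 16 libraries 10 lay closest to libraries of their own number, and libraries of the same number also have neighbouring codes. What a number stands for is not stated in the labels, and a shared preparation was not tested. Fits on the compared groups alone give no value for the averages and the interaction. Counts of 0 in some libraries limit 9 members, namely Psmb8, Psmb9, Psme1, Psme2, Psmc3ip, Psma5, Psmd9, Psmd10 and Psmg1. The library with the highest total (13986374 counts, replicate 4 of untreated neurons alone) had 7 members at 0. The one with the lowest total (6511516 counts, replicate 1 of loaded co-cultures) had 3. The cause of these zeros was not tested.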
